A study of Rattus norvegicus with 49 samples.

Results

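Genes of DNA repair and DNA damage signalling were followed in rat thyroid months after an injection of the radionuclide iodine-131 (131I). A list of 47 genes in 8 pathways was matched to the array through the RefSeq accession that the array files give for each probe, and the brightest probe of a gene over all 49 arrays was used. The list had 34 genes with a probe, each with a single probe, out of 15154 gene symbols on the array, and 13 genes without one (Atr, Tp53bp1, Rad52, Xrcc3, Fanca, Prkdc, Lig3, Ddb1, Ddb2, Ercc2, Ercc4, Ercc5 and Msh6).

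The animals were male Sprague Dawley rats, and total RNA of each thyroid was labelled with Cy3 and hybridised to a one-colour Agilent rat expression array. Exposed rats had received 131I intravenously as young animals of 5 weeks or as adults of 17 weeks. Young rats given 50 kBq were killed 3, 6 and 9 months later, at ages of 4, 7 and 10 months, and young rats given 0.5, 5 or 500 kBq were killed 9 months later, at 10 months. Adult rats given 50 kBq were killed 3, 6 and 9 months later, at 7, 10 and 13 months, and untreated controls were killed at 4, 7, 10 and 13 months. Each of the 13 groups had 4 arrays, except 3 arrays for 5 kBq and for the controls of 7 and of 13 months. All groups were whole thyroid of intact rats, so that in every value fewer cells of a type and less RNA per cell cannot be told apart.

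DNA lesions are first sensed by kinase pathways, in which ATM responds to double-strand breaks and ATR with its partner ATRIP to single-stranded DNA at stalled forks, and both act through the checkpoint kinases CHEK1 and CHEK2. Double-strand breaks are then rejoined either by homologous recombination, which copies the sister chromatid and therefore needs dividing cells, or by non-homologous end joining, in which the Ku proteins bind the ends and the LIG4 and XRCC4 complex seals them. Base excision repair removes the oxidised bases and single-strand breaks that ionising radiation leaves in large numbers, nucleotide excision repair takes out bulky lesions, mismatch repair corrects copying errors and MGMT removes alkyl groups directly. Follicular thyrocytes, the cells that take up iodine, seldom divide in the adult gland.

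A few arrays stood apart, and results that rest on them are given with and without them. Replicate 2 of the young rats 3 months after 50 kBq was dim, with 43.1% of its spots well above background against 69.2% to 82.5% on the other arrays, and only 18 of the 34 genes were well above background on it. Replicate 3 of that group and replicate 2 of the 7-month controls lacked thyroid markers: the mean of 10 thyrocyte genes was -3.97 and -4.90 on them, on the log2 scale used below, against -0.06 to 2.25 in the 44 samples that remain without these 3 arrays. Replicates 1 and 2 of the 13-month controls, and replicates 1 and 2 of the adult rats 6 months after injection, differed by over 2-fold at 11 and 28 of 10938 probes, against 130 to 6804 in the other 1174 pairs of arrays, so that each pair was averaged and counted as 1 sample, which left 47 samples. All levels below are log2 of the processed signal minus the 75th percentile of the same array, and all differences are log2 differences of such levels. A gene was called when limma gave a Benjamini-Hochberg adjusted p below 0.01 over all 25284 probes tested together with a change of over 1.5-fold.

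The promoter sequence is shown for Lig4 (the ligase of end joining), Atrip (the partner of the ATR kinase) and Fancd2 (the protein that the Fanconi anaemia core complex marks at crosslinked DNA), since the comparisons with the 13-month controls turn on these genes. Each runs from 250 bases before to 50 bases after the annotated start, from RefSeq on the rat build GRCr8, with motif matches on either strand in capitals. Lig4 lies on the plus strand at chr16:86220192-86220491, Atrip on the minus strand at chr8:118600895-118601194 and Fancd2 on the plus strand at chr4:148234458-148234757.
Lig4: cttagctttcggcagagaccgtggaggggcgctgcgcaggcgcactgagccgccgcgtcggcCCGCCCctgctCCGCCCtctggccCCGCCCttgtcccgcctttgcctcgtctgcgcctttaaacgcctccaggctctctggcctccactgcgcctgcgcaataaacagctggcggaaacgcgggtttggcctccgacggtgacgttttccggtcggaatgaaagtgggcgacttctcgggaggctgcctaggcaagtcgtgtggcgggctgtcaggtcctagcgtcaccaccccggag
Atrip: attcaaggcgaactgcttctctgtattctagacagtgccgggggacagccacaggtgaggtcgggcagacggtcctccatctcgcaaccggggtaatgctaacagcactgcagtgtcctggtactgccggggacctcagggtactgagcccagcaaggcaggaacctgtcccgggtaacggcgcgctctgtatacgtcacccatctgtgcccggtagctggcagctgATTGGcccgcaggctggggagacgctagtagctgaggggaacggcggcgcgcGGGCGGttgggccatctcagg
Fancd2: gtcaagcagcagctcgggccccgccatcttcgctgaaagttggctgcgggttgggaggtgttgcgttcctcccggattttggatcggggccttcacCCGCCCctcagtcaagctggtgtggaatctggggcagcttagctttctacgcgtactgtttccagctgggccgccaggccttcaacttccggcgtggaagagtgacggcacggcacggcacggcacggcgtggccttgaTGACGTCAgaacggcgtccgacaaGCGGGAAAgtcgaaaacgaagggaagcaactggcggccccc
Lig4 held 3 GC boxes (GGGCGG, or CCGCCC on the other strand), Atrip 1 GC box and 1 CCAAT box (CCAAT, or ATTGG), and Fancd2 1 GC box, 1 cAMP response element (TGACGTCA) and 1 E2F site (TTTCCCGC, or GCGGGAAA), and no match overlapped another.

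Promoters were matched for 40 of the 47 genes, 44 promoters in all, and compared with all 33469 promoters of the table. A gene counted once if any of its promoters held the motif, while all promoters were counted singly, which can raise the genes' shares. A GC box stood in 29 of the 40 genes (72.5%) against 33.1% of all promoters, a CCAAT box in 17 (42.5%) against 37.5% and the E2F site in 4 (10.0%) against 0.974%. A TATA box (TATAAA) was in none of the 40 against 14.2% of all promoters, and the cAMP response element was in Fancd2 alone (2.5%) against 1.83%. The canonical p53 response element, with a spacer of at most 13 bases, was in none of the 40 and in 20 of all promoters (0.0598%). These are letters in a window of 300 bases, and the median GC content of that window was 61.7% in the genes' promoters and 51.7% in all promoters.

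Most of the genes gave a signal in all groups. Of the 34, 18 were well above background on every array, and 14 more on 45 to 48 of the 49 arrays. Brca1, which loads the recombination machinery at breaks, was well above background on 3 arrays, and Xrcc2, of homologous recombination, on 2, which left it out of the tests and 33 genes in them. The pooled SD between samples of a group was lowest for Xrcc5, the larger Ku subunit (0.127), Pms2 of mismatch repair (0.162) and Ercc3, a helicase of the transcription factor TFIIH (0.164). It was highest for Brca1 (0.833), Chek2 (0.779) and Chek1 (0.775). Once the 3 arrays that stood apart were left out, the SD ranged from 0.099 for Ercc3 to 0.553 for Brca1, with a median of 0.201 over the 33 genes.

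**Figure D1:**
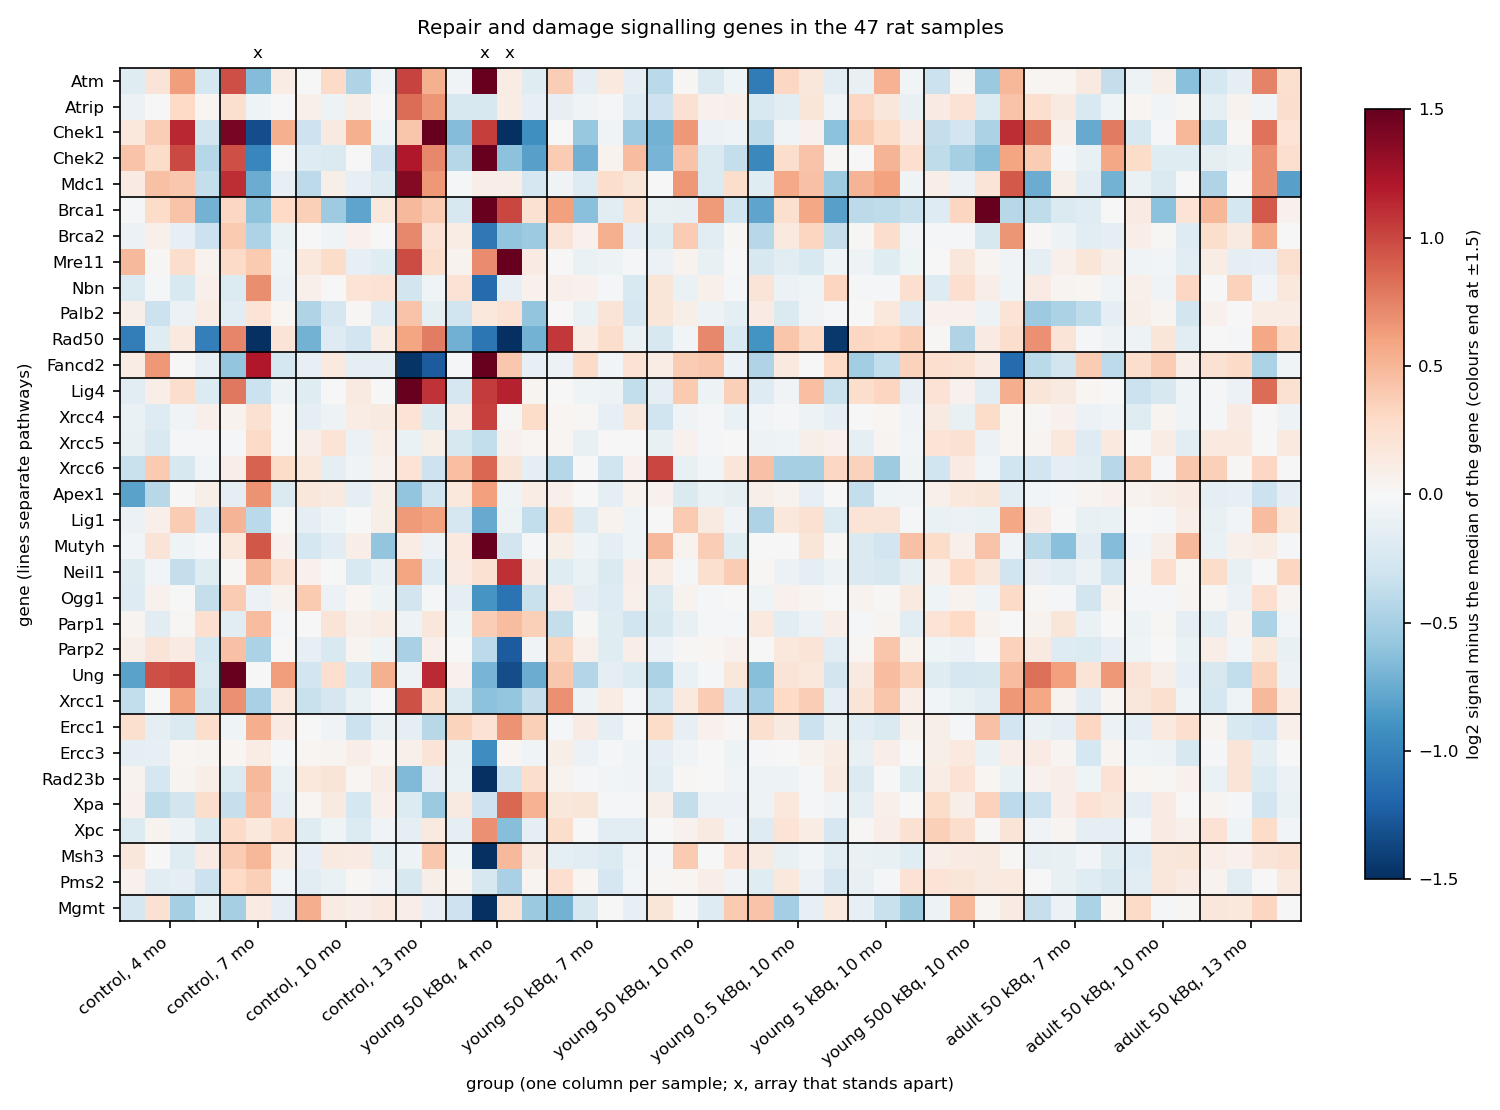
Level of each of the 33 tested genes (rows, grouped by pathway) in the 47 samples (columns, by group), as log2 signal minus the 75th percentile of the array and minus the gene's median; red is higher, blue lower, and a cross marks an array that stood apart. Columns marked by a cross hold many of the strong colours, the 2 samples of the 13-month controls are red in Atrip, Mdc1 and Lig4 and blue in Fancd2, and the row of Xrcc5 (SD 0.127) is pale throughout.

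Exposed groups were compared with untreated controls of the same age to ask whether repair genes still differed months after the injection. With all 47 samples, no gene of the list was called by limma in any of the 9 comparisons. Among all probes, 3 (0.0119%) were called in the young rats 9 months after 50 kBq, 3 (0.0119%) at 5 kBq and 0 (0%) in each of the other 7 comparisons. An F test over the 9 comparisons together gave 0 genes of the list at an adjusted p below 0.01 (0.0119% of all probes) and 3 at an unadjusted p below 0.05 (5.74% of all probes). When the 3 arrays that stood apart were left out, Lig4, Atrip and Fancd2 were called in the adult rats of 13 months, as described below, and none in the other 8 comparisons.

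Young rats given 4 different activities were read after 9 months against the same controls. Against the 4 controls of 10 months, the 33 genes lay between -0.32 and 0.28 at 0.5 kBq, between -0.56 and 0.59 at 5 kBq, between -0.20 and 0.41 at 50 kBq and between -0.13 and 0.62 at 500 kBq. Their medians were -0.04, 0.01, 0.01 and 0.08, beside medians of all probes of -0.00, -0.02, 0.04 and 0.06. At an unadjusted p below 0.05, limma gave 1 gene higher and 0 lower at 500 kBq (0.89% and 0.641% of all probes). It gave 0 higher and 0 lower at 0.5 kBq (0.396% and 0.494%), 5 kBq (0.914% and 0.744%) and 50 kBq (0.854% and 0.443%), where both directions together made 0.89%, 1.66% and 1.3% of all probes. In 44 samples the genes higher were 0, 0, 1 and 4 at 0.5, 5, 50 and 500 kBq (1.21%, 3.67%, 3.41% and 3.72% of all probes), and those lower 0, 2, 0 and 0 (1.22%, 2.53%, 1.19% and 1.4%). By pathway, the median difference of a pathway with 2 or more genes stayed between -0.11 and 0.19 at all 4 activities.

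Single genes in these groups separated from the controls without reaching the threshold. Xpc, the protein that recognises bulky lesions in nucleotide excision repair, read -1.80, -1.69, -1.83 and -1.68 in the controls. It read -1.60, -1.52 and -1.39 at 5 kBq and -1.27, -1.36, -1.60 and -1.43 at 500 kBq, so that every one of these rats was above every control, while 0.5 kBq (-1.81, -1.42, -1.51 and -1.88) and 50 kBq (-1.62, -1.56, -1.48 and -1.68) did not give that order in full. The differences for Xpc were 0.24 ± 0.18 (SE) at 5 kBq and 0.33 ± 0.16 at 500 kBq, with adjusted p of 1.0 in limma and an exact two-sided permutation p of 0.0286 each, the smallest that 3 or 4 samples against 4 allow. Genes were named here because the groups do not overlap, which by itself fixes this permutation p at its smallest value, so it adds no support. The same 4 controls serve in both comparisons, and in that with the adult rats of 10 months, where Xpc was again above all controls (-1.63, -1.49 and -1.55, difference 0.19 ± 0.18). At 5 kBq, 3 genes were above all controls (8.55% of all probes) and 2 below (6.81%), at 500 kBq 2 were above (2.33%) and 0 below (0.586%), and at 0.5 kBq 0 were above (0.57%) and 0 below (0.483%).

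At 5 kBq the gene lowest against the controls was Mgmt, which removes alkyl groups from guanine. It read 0.53, 0.33 and 0.12 against 1.20, 0.78, 0.76 and 0.80 in the controls, a difference of -0.56 ± 0.33 with an adjusted p of 1.0 in limma. These samples do not overlap, while Mgmt at the other activities overlapped with the controls, with 0.15 to 1.08 at 0.5 kBq and 0.58 to 1.16 at 500 kBq. Rad50, of the complex that holds broken ends together, read -1.99, -2.003 and -1.95 at 5 kBq against -3.02, -2.49, -2.59 and -2.19, a difference of 0.59 ± 0.46. Xrcc1, the scaffold of single-strand break repair, read 2.46, 2.69 and 2.37 against 1.93, 2.02, 2.17 and 2.27, a difference of 0.41 ± 0.27. Both genes move with the thyrocyte markers, as given further below, and the mean of those markers was 1.55, 1.69 and 1.65 in the 5 kBq samples against 0.84, 1.09, 1.07 and 1.495 in the controls. The part of the thyrocyte share in these differences was not tested.

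At 50 kBq after 9 months, Parp1, Ercc3 and Rad23b were below all controls in the 4 rats, 3 genes against 1.25% of all probes, and 0 were above (2.73%). Parp1, which binds single-strand breaks and builds poly(ADP-ribose) there, read 1.70, 1.83, 1.91 and 1.92 against 1.95, 2.14, 2.01 and 2.05, a difference of -0.20 ± 0.14. The differences of Ercc3 and of Rad23b, the partner of XPC, were -0.12 ± 0.13 and -0.17 ± 0.26, and all 3 had an adjusted p of 1.0 in limma. At 500 kBq, Pms2 of mismatch repair read -1.97, -1.997, -2.05 and -2.03 against -2.34, -2.28, -2.16 and -2.23, a difference of 0.24 ± 0.13 with an adjusted p of 1.0 in limma. The groups do not overlap, and the separation is narrow for each of these genes.

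Over the 15 samples of the 4 activities, a slope on log10 of the activity asked whether a level followed the amount injected. None of the 32 genes tested in it reached an adjusted p below 0.01, as no probe did (0%), and 2 had an unadjusted p below 0.05 (2.59% of all probes). They were Mre11, the nuclease that opens broken ends, with 0.07 ± 0.03 (SE) for a 10-fold step, and Pms2 with 0.08 ± 0.04, both with an adjusted p of 1.0 in limma. Among negative slopes, Chek2 and Nbn had the lowest p, with -0.09 ± 0.11 and -0.02 ± 0.04.

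**Figure D2:**
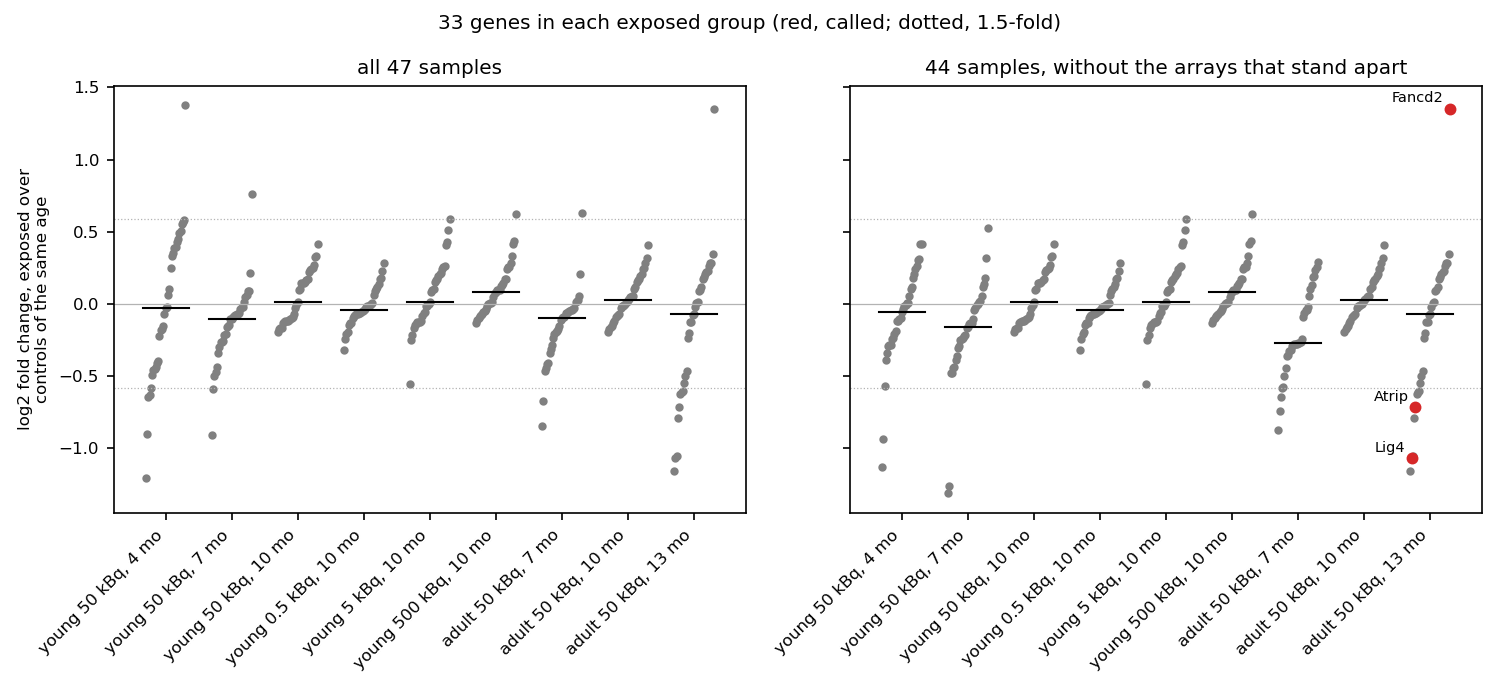
Log2 difference between each exposed group and its controls of the same age for the 33 genes (points), with all 47 samples on the left and without the 3 arrays that stood apart on the right; dotted lines mark 1.5-fold and red points genes that were called, and each short bar is the median. The young rats of 4 months narrow from -1.21 to 1.37 down to -1.13 to 0.42 when the 3 arrays are left out, and the 3 called genes are in the adult group of 13 months.

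The young rats 3 months after 50 kBq showed the widest spread with all arrays, and this group holds 2 of the 3 arrays that stood apart. At an unadjusted p below 0.05, 6 genes were higher (27.7% of all probes) and 7 lower (9.19%), 13 in all beside 36.9% of all probes. After the 3 arrays were left out, 3 were higher (4.98% of all probes) and 3 lower (4.82%), and the smallest adjusted p of a gene in limma was 0.50. With all arrays 5 genes differed by over 1.5-fold, and 2 without the 3 arrays, counts that have no share of all probes beside them. Neil1, a glycosylase that starts base excision repair at oxidised bases, read -4.07, -3.95, -3.10 and -4.07 against -4.37, -4.23, -4.55 and -4.36 in the controls of 4 months, all above them (3.97% of all probes). Its difference was 0.58 ± 0.17 with an adjusted p of 0.030 in limma, and 0.31 ± 0.16 with an adjusted p of 0.51 without the 3 arrays. The highest of the 4 values came from the array without thyroid markers. The value of -3.95 came from the dim array, below the lowest signal well above background there (-2.01). Quantile normalization turned the difference to -0.11.

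At 7 months of age, young rats 6 months and adult rats 3 months after 50 kBq were read against the same 3 controls, 1 of which lacked thyroid markers. Xrcc6, the smaller Ku subunit that binds broken ends, read 1.78, 2.57 and 1.96 in the controls. It read 1.25, 1.68, 1.38 and 1.74 in the young rats and 1.40, 1.53, 1.52 and 1.27 in the adults, below every control in both groups. The differences for Xrcc6 were -0.59 ± 0.26 and -0.67 ± 0.26 (adjusted p 0.77 and 0.998 in limma). The control that lacked thyroid markers held the highest of the 3 values, and in the fit without the 3 arrays the differences were -0.36 ± 0.28 and -0.44 ± 0.28. In the young rats 0 genes were above all controls (1.67% of all probes) and 2 below (6.15%), and in the adults 0 were above (0.431%) and 5 below (7.22%). Without the control that lacked thyroid markers, 4 were above (6.63%) and 6 below (11.9%) in the young rats, and 3 above (3.66%) and 6 below (14%) in the adults.

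The other genes below the 7-month controls belong to base excision, mismatch and nucleotide excision repair. Mutyh, the glycosylase that removes adenine opposite oxidised guanine, read -2.79, -3.01, -2.55 and -3.03 in the adult rats against -2.23, -1.46 and -2.32 in the controls, a difference of -0.84 ± 0.33 with an adjusted p of 0.998 in limma. The control that lacked thyroid markers again held the highest value, and in the fit without the 3 arrays the difference was -0.57 ± 0.19 with an adjusted p of 0.50. Neil1 read -4.31, -4.35, -4.28 and -4.48 in the same adults against -4.17, -3.71 and -3.96, a difference of -0.41 ± 0.19, and -0.29 ± 0.16 in the fit without the 3 arrays. Msh3 of mismatch repair read -1.86, -1.89, -1.93 and -1.78 in the young rats against -1.35, -1.23 and -1.61, a difference of -0.47 ± 0.30 with an adjusted p of 0.87 in limma. The value of -1.23 came from the control that lacked thyroid markers, and in the fit without the 3 arrays the difference was -0.39. At an unadjusted p below 0.05, 2 genes were lower in the young rats (3.12% of all probes, 6.23% in both directions) and 5 in the adults (2.74%), and 0 were higher in either (3.1% and 1.62%). In 44 samples, 4 were lower in each (7.62% and 6.72%) and 0 higher (2.55% and 1.25%).

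The adult rats of 10 months, 6 months after 50 kBq, lay close to their controls, with differences between -0.19 and 0.41 and none at an unadjusted p below 0.05 (0.538% of all probes), and 1 higher and 0 lower in 44 samples (2.87% and 0.541%). Beside Xpc, which was above the controls (4.6% of all probes), Ercc3 was below them (2.09%), with 1.58, 1.58 and 1.41 against 1.67, 1.69, 1.75 and 1.68. The difference of Ercc3 was -0.17 ± 0.15 with an adjusted p of 1.0 in limma.

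In the comparison of adult rats 9 months after 50 kBq with controls of 13 months, 9 of 33 genes were past 1.5-fold, a count without a share of all probes beside it. With all 47 samples 0 genes were called (0% of all probes), 1 was higher and 5 lower at an unadjusted p below 0.05 (7.27% and 7.57% of all probes), and 2 were above and 6 below all controls (11.7% and 18.2%). The 3 arrays that stood apart all belong to other groups, and leaving them out changed the estimate of the spread and not the differences here. Fancd2 was then called higher and Lig4 and Atrip lower, beside 624 probes in all (2.48%), of which 0.720% were higher and 1.76% lower. In that fit 2 genes had an unadjusted p below 0.05 and were higher (11.5% of all probes), and 7 were lower (16.1%). The 13-month controls were 2 samples, and 4 samples against 2 cannot give an exact permutation p below 0.0667.

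Lig4 read -0.87 and -1.30 in the controls of 13 months and -2.42, -2.48, -1.56 and -2.16 in the exposed rats, all of them lower. The difference for Lig4 was -1.07 ± 0.31 with an adjusted p of 0.12 in limma, and ± 0.24 with an adjusted p of 0.0055 without the 3 arrays. Atrip read 0.77 and 0.61 in the controls and -0.20, -0.00, -0.10 and 0.21 in the exposed rats, again all lower. Its difference was -0.71 ± 0.17 with an adjusted p of 0.085, and ± 0.16 with 0.0056 without the 3 arrays.

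Fancd2 read -7.32 and -7.10 in the controls, where none of the 3 arrays was well above background, and -5.63, -5.56, -6.33 and -5.91 in the exposed rats, where all 4 were. As measured, the signal was 2.55-fold higher in the exposed rats, a fold that is not exact since the controls lie at background. The difference was 1.35 ± 0.41 with an adjusted p of 0.14 in limma, and ± 0.30 with 0.0048 without the 3 arrays. That direction holds for the processed signal: with normexp background correction the difference was -0.32, with an adjusted p of 0.69. The level of Fancd2 in these controls thus depends on how the background of a dim probe is removed.

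Mre11 of homologous recombination and Mdc1 of damage signalling also had lower means than the controls in this comparison. Mre11 read -3.67 and -4.37 in the controls and -4.54, -4.79, -4.76 and -4.41 in the exposed rats, a difference of -0.60 ± 0.25 with an adjusted p of 0.26 in limma, and of 0.013 without the 3 arrays. The difference of Mre11 was -0.25 without the control sample averaged from replicates 1 and 2 and -0.96 without the control replicate 3. Mdc1, the adaptor that gathers repair factors at marked chromatin, read 0.81 and 0.09 against -1.02, -0.56, 0.13 and -1.37, and these groups overlap by 1 sample. The median of the 5 damage signalling genes was -0.79, with 0 of 5 higher, against -0.12 for all probes. Homologous recombination (-0.18, 6 genes) lay near that median of all probes, and base excision repair (-0.08, 9 genes) and nucleotide excision repair (0.18, 5 genes) near 0. Nbn, the third subunit of the MRE11 complex, was above both controls with a difference of 0.29 ± 0.24.

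The same controls of 13 months were also set against younger controls. Lig4 read -2.56, -2.29, -2.12 and -2.60 at 4 months, -1.60, -2.71 and -2.46 at 7 months and -2.57, -2.39, -2.26 and -2.39 at 10 months, so that both samples of 13 months were above all 11 younger controls. Atrip lay between -0.15 and 0.24 in the younger controls and Fancd2 between -6.45 and -4.65, and the 13-month controls were outside these ranges as well. Against controls of 4 months, the differences were 1.31 ± 0.31 for Lig4, 0.69 ± 0.17 for Atrip and -1.52 ± 0.41 for Fancd2 (2.86-fold lower as measured). Their adjusted p in limma were 0.025, 0.029 and 0.034. In the fit of 44 samples all 3 were called, with adjusted p of 0.00061, 0.0034 and 0.0010, and normexp correction moved the Fancd2 difference to 0.03.

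Against 4 months, 0 genes were called by limma at 7 months (0.00396% of all probes), 10 months (0%) or 13 months (0.0158%) among the controls. At an unadjusted p below 0.05, 4, 1 and 7 genes were higher (3.54%, 2.27% and 15.1% of all probes) and 0, 0 and 1 lower, beside 7.23%, 3.48% and 25.8% of all probes in both directions. In 44 samples, 4, 2 and 10 were higher (10%, 3.86% and 26.5%) and 0, 0 and 2 lower (3.04%, 3.04% and 14.8%). In the fit of 44 samples, 2 genes were called higher and 1 lower at 13 months, beside 7.21% and 2.98% of all probes, and none at 7 months (0.0278%) or 10 months (0.0119%). The F test over ages gave an adjusted p of 0.049 for Lig4, 0.055 for Atrip, 0.089 for Fancd2 and 0.17 for Apex1, the main endonuclease of base excision repair. In 44 samples the F test gave 3 genes at an adjusted p below 0.01, Lig4, Atrip and Fancd2, beside 5.68% of all probes.

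Since the 13-month controls stood apart, the adult rats of 13 months were also set against the 10-month controls, which was chosen after seeing the data and does not match their age. No gene of the list was called (0.0119% of all probes), 0 had an unadjusted p below 0.05 (1.95%), and all 33 overlapped with those controls. In 44 samples 1 was higher (5.51%) and 1 lower (1.46%) at that p. Lig4 differed by 0.25 ± 0.25, Atrip by 0.02 ± 0.14 and Fancd2 by 0.06 ± 0.33. The same 10-month controls differed from the 13-month controls by 1.32 ± 0.31 in Lig4, 0.73 ± 0.17 in Atrip and -1.29 ± 0.41 in Fancd2, counted as 13 minus 10 months. For Fancd2 the measured signal was 2.45-fold lower at 13 months, where its level depends on the background correction as given above. These 2 comparisons share the 10-month controls. In 44 samples the 13-month controls had 3 genes called higher than at 10 months, Lig4, Atrip and Mre11 (0.59 ± 0.15, adjusted p 0.0063 in limma), and Fancd2 lower, beside 6.97% and 3.63% of all probes.

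**Figure D3:**
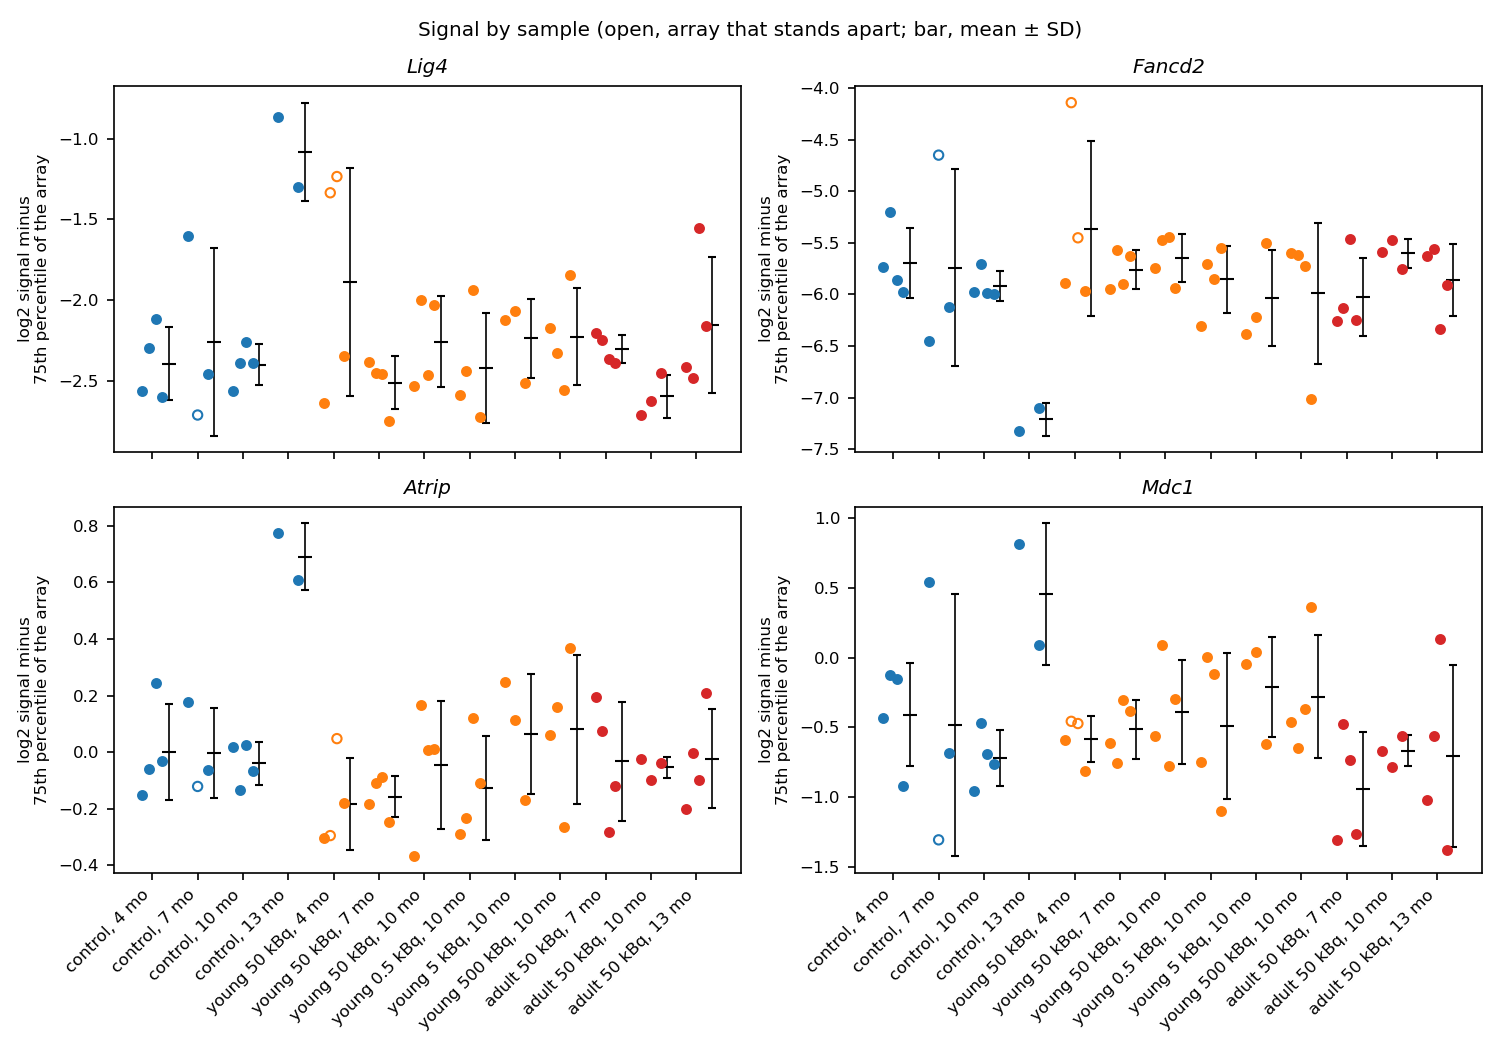
Level of single genes in each sample by group, as log2 signal minus the 75th percentile of the array; points are samples, open circles arrays that stood apart, and bars the mean ± SD. In Lig4, Atrip and Fancd2 the 2 control samples of 13 months stand away from the other controls, with Lig4 at -0.87 and -1.30, and the exposed rats of 13 months lie with the younger groups.

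Markers of other tissues moved with this comparison. The mean of 6 skeletal muscle genes was 2.03 and 3.50 in the 13-month controls and 6.29, 6.59, -2.97 and 6.51 in the exposed rats of 13 months, and 5.22 to 6.93 in 39 of the 44 samples, the 3 highest of these exposed rats among them. Outside that range lay also 1 control of 7 months (3.87) and 1 rat given 500 kBq (3.60). The mean of 10 thyrocyte genes was 2.25 and 2.00 in these controls and 1.05 to 1.71 in the exposed rats. Replicate 3 of the exposed rats, the one with the least muscle signal, had the highest Lig4 (-1.56) and the lowest Fancd2 (-6.33) of its group, but not the highest Atrip (-0.10). With the muscle mean as a covariate, which was chosen after seeing the data, the differences over 47 samples were -0.93 for Lig4, 1.16 for Fancd2 and -0.69 for Atrip. Their adjusted p in limma were 0.14, 0.16 and 0.092, beside 0.12, 0.14 and 0.085 in the same samples without the covariate. Slopes along the muscle list turn on replicates 2 and 3 of these exposed rats, as given further below. The covariate therefore cannot decide the part of the muscle share in these differences. Beyond it, the part of the tissue mixture was not tested.

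The effect of 50 kBq was compared between rats injected young and as adults at equal times after injection, by the difference of the 2 differences. No gene of the list was called by limma at 3, 6 or 9 months (0% of all probes each). At an unadjusted p below 0.05, 6, 0 and 4 genes had a positive value, young minus adult (22.5%, 0.842% and 5.06% of all probes), and 0, 1 and 1 a negative one (6.05%, 3.14% and 3.66%). Such a value also turns on the controls of each age, and is not a difference in level between young and adult rats. In 44 samples, 3, 0 and 5 were positive (5.22%, 1.44% and 13.7%) and 0, 5 and 4 negative (1.48%, 7.97% and 7.36%). The genes with the smallest p were Neil1 (0.99 ± 0.25, adjusted p 0.069 in limma) and Mutyh (1.40 ± 0.45, adjusted p 0.077) at 3 months and Xrcc6 (-0.83 ± 0.37) and Neil1 (-0.51 ± 0.26) at 6 months, both with an adjusted p of 1.0. At 9 months they were Atrip (0.71 ± 0.22) and Lig4 (1.21 ± 0.40), both with an adjusted p of 0.52. In 44 samples the 3-month values were 0.60 ± 0.23 for Neil1 and 0.63 ± 0.27 for Mutyh, both with an adjusted p of 0.74, and Lig4 at 9 months had an adjusted p of 0.034, a value that rests on the 13-month controls.

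Other genes of the same field were counted beside the list. Of 48 other DNA repair genes tested, 0 were called in any of the 9 exposed comparisons with or without the 3 arrays. Without them, 2 were called higher (7.21% of all probes) and 1 lower (2.98%) in the 13-month controls against 4 months. Of 11 p53 target genes, such as the cell cycle inhibitor Cdkn1a, 0 were called in the exposed comparisons, whether or not the 3 arrays were in. At an unadjusted p below 0.05 and without the 3 arrays, the p53 targets gave 1 higher (11.5% of all probes) and 3 lower (16.1%) in the adult rats of 13 months, and 1 higher (4.98%) and 0 lower (4.82%) in the young rats 3 months after injection. They gave 1 higher at 5 kBq (3.67%), 1 lower in the young rats of 7 months (7.62%) and 2 lower in the adults of 7 months (6.72%), and 0 in either direction in the other 4 groups.

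Variation between rats of a group was then read against the make-up of the tissue, in 44 samples without the 3 arrays, by a limma fit with the group means and the mean of a tissue list. Among the list, 7 of 33 genes were higher in samples with more thyrocyte signal at an adjusted p below 0.01, beside 17.4% of all probes, and 0 were lower (11.1%). A share of that size is near the background, and the description below concerns single genes. Rad50 rose by 0.85 ± 0.07 per unit of the thyrocyte mean (adjusted p 7.3e-11 in limma, a p as small as that in 0.314% of probes). Xrcc1 rose by 0.59 ± 0.06 (adjusted p 1.5e-08, 1.16% of probes).

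Rad50 shows this in the groups of single rats. In the controls of 4 months it read -3.35, -2.48, -2.15 and -3.33 while the thyrocyte mean was -0.06, 1.08, 1.91 and 0.34. At 0.5 kBq it read -3.20, -1.89, -2.02 and -3.75 with thyrocyte means of 0.05, 1.44, 1.63 and 0.04. The rats high in thyrocyte RNA were those high in Rad50 in both groups, and on the 2 arrays without thyroid markers it read -4.41 and -4.52. With the 2 samples farthest from the median of the thyrocyte list left out, the slope of Rad50 was 0.93 ± 0.09, and with quantile normalization it was 0.75 ± 0.06.

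The other genes with a slope along the thyrocyte list were Lig1 (0.36 ± 0.06), the ligase that joins excision and replication patches, the uracil glycosylase Ung (0.64 ± 0.12), Atm (0.48 ± 0.11), Chek1 (0.59 ± 0.17) and Chek2 (0.52 ± 0.14). Chek1 and Chek2 had adjusted p of 0.031 and 0.034 in limma when replicate 3 of the 0.5 kBq group and replicate 3 of the 4-month controls were left out. Along the skeletal muscle list, 4 of the 33 genes were lower with more muscle signal (4.86% of all probes) and 0 higher (8.46%). These were Mdc1 (-0.17 ± 0.03), Lig4 (-0.12 ± 0.02), Brca2 (-0.09 ± 0.02), of homologous recombination, and Lig1 (-0.08 ± 0.02). Fancd2 had a slope of 0.11 ± 0.03 (adjusted p 0.017) and Atrip of -0.02 ± 0.02 (adjusted p 0.63).

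Without replicates 2 and 3 of the adult rats of 13 months, the 2 samples farthest from the median of the muscle list within groups, 7 genes were lower and 1 higher with more muscle signal, beside 11.3% and 14.4% of all probes. The slopes were then -0.41 ± 0.06 for Mdc1, -0.25 ± 0.05 for Lig4, 0.28 ± 0.07 for Fancd2 and -0.13 ± 0.04 for Atrip (adjusted p 0.018). Along a squamous epithelium list, which was high in 12 samples of several groups (0.02 to 2.92) and low in 32 (-4.91 to -2.08), 0 of the 33 genes had a slope at this level (0.131% of all probes lower, 4.56% higher). Of the 48 other repair genes, 3 were lower (4.86% of all probes) and 1 higher (8.46%) along the muscle list in all 44 samples.

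**Figure D4:**
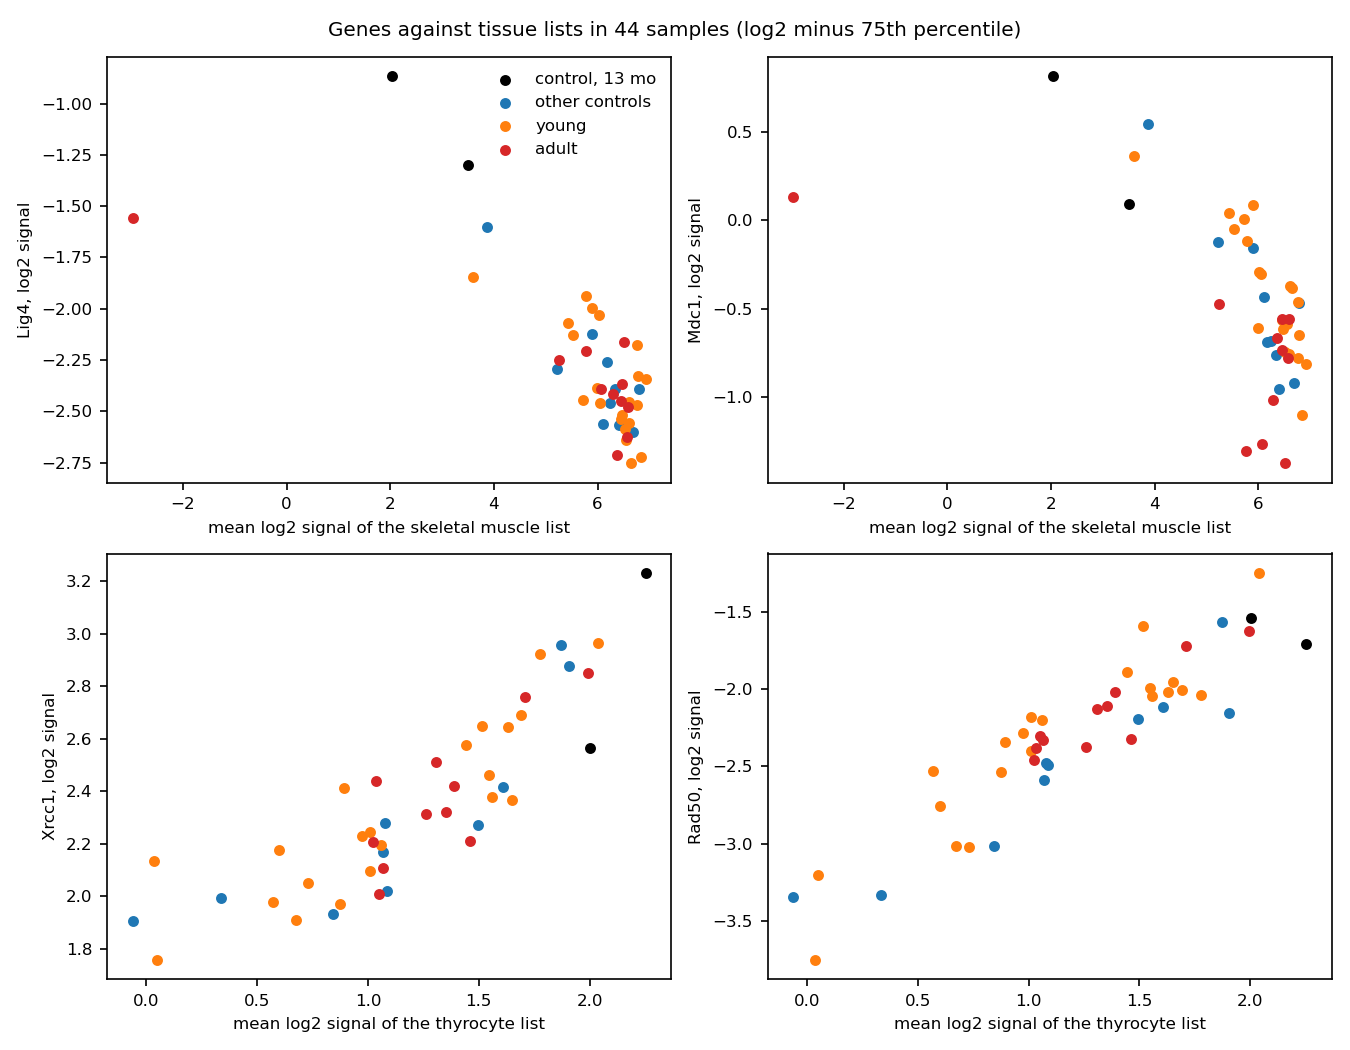
Level of single genes (vertical axis) against the mean of a tissue list (horizontal axis), both as log2 minus the 75th percentile of the array, in 44 samples; each point is a sample, coloured by its kind of group as the legend gives. Rad50 and Xrcc1 climb with the thyrocyte mean, and Lig4 and Mdc1 are highest in the samples poor in muscle signal.

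Levels of checkpoint and repair genes are known to follow the share of dividing cells, so each gene was set against the mean of 22 proliferation genes, both as differences from the group mean, over 33 relations. The same permutation test was run for all 25171 probes with a value in every sample, and p-values were adjusted over all of them. Within the 30 samples low in squamous markers that share a group with another, Chek2 gave r = 0.76 and rho = 0.72 (permutation p 0.0016 and 0.0022, adjusted p 0.012 for r). In the same samples Chek1 gave r = 0.65 and Ercc1, the nuclease partner of nucleotide excision repair, r = -0.70, with adjusted p of 0.0092 and 0.0093 from the permutation test. There, 12 of the 33 genes had an adjusted p below 0.05 by r (31.8% of all probes) and 11 by rho (29.4%). These shares pool both directions and are near the background. By r, 10 of these genes were positive (15.8% of all probes) and 2 negative (16%). By rho, 9 were positive (14.2%) and 2 negative (15.2%). The positive share was thus above that of all probes and the negative share below it, a difference that was not tested. In the 9 samples high in squamous markers, r was 0.80 for Chek2 (exact permutation p 0.083), -0.01 for Chek1 and -0.35 for Ercc1, and 1 of the 33 had an exact p below 0.05 before adjustment, where the smallest possible was 0.021.

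Over all 47 samples, 6 genes had an adjusted p below 0.05 by r (19.1% of all probes) and 5 by rho (17.4%). By r, 3 were positive (10.2%) and 3 negative (8.82%), and by rho 2 (9.71%) and 3 (7.66%), shares near the background. By rho Neil1 (r = -0.39, rho = -0.47) was among them, and Atm and Nbn were not. Chek2 gave r = 0.70 and rho = 0.76 (permutation p 1e-05 for both, the smallest possible, adjusted p 0.00035 for r), Chek1 r = 0.55 (rho = 0.46), Atm r = 0.48 (rho = 0.41), Ercc1 r = -0.55 (rho = -0.59), Xpa r = -0.52 (rho = -0.51) and Nbn r = -0.51 (rho = -0.40). Brca1, the next highest, gave r = 0.34 with an adjusted p of 0.16. With the 2 samples farthest from the median of the list left out, Chek2 (r = 0.72), Neil1 and Ogg1, a glycosylase for oxidised guanine, had an adjusted p below 0.05 by r (8.71% of all probes), and Chek2, Ercc1 and Neil1 by rho (8.93%). In 44 samples Chek2 alone had an adjusted p below 0.05 by r (r = 0.70, adjusted p 0.00066, 8.39% of all probes), and Chek2, Neil1 and Ercc1 by rho (9.2%). The other 5 genes then gave r = -0.47 for Ercc1, 0.40 for Chek1, -0.35 for Xpa, 0.27 for Atm and -0.28 for Nbn, with adjusted p from the permutation test of 0.069, 0.13, 0.19, 0.30 and 0.31. By scan date, Chek2 gave r = 0.72 in 18 samples of the first date and 0.98 in 9 of the second, and the third held 4 samples, too few for a value. The value of the second date is not particular to Chek2. Other genes lay nearly as far from 0 there, such as Xrcc1 (0.97), Chek1 (0.96) and Xpa (-0.93), while Brca1 (-0.08) did not. No p and no share of all probes was computed by scan date. The proliferation list itself moved with the squamous list (r = 0.82 and rho = 0.72 over 44 samples, permutation p 1e-05 for both, the smallest possible), so that the 2 lists cannot be told apart over the pooled samples.

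**Figure D5:**
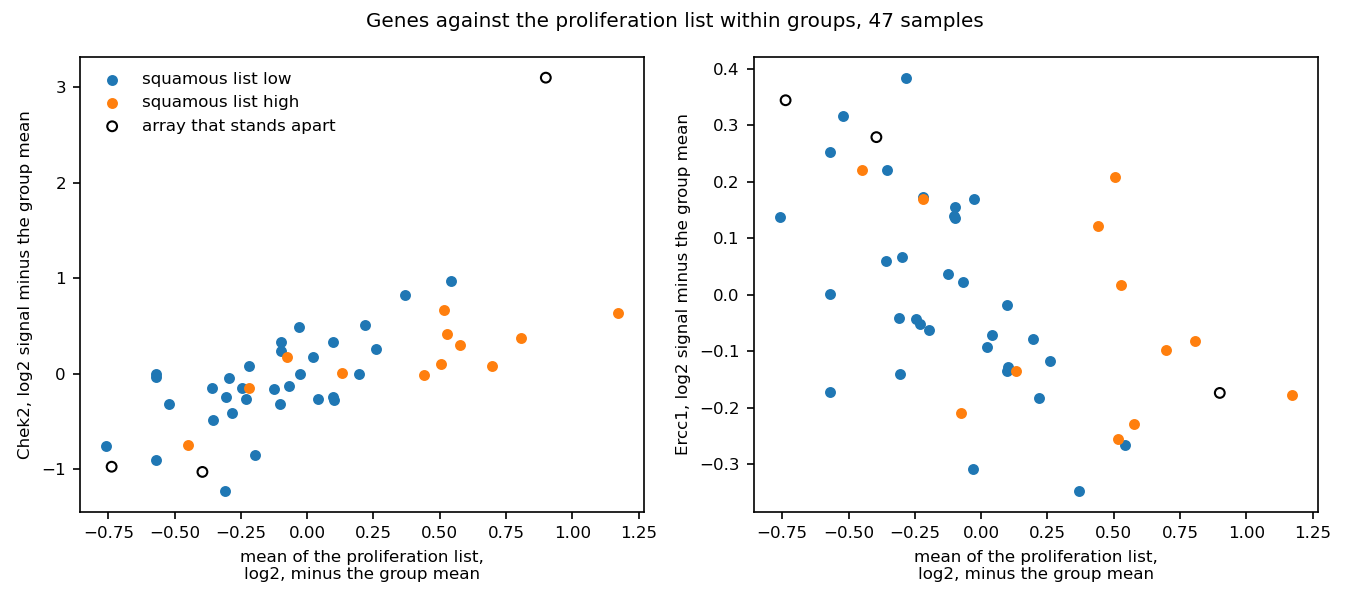
Chek2 and Ercc1 (vertical axis) against the mean of the proliferation list (horizontal axis), both as log2 level minus the group mean, in 47 samples; colours separate samples low and high in squamous markers and open circles are arrays that stood apart. Chek2 rises with the list in the samples low in squamous markers (r = 0.76), and Ercc1 falls (r = -0.70).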

How the data were processed

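The authors deposited 1 file per array from Agilent Feature Extraction 10.7.3.1 (per the file headers), whose processed signal is an intensity, background-subtracted for each spot and not scaled between arrays. The deposited marks (0 or 1) for spots well above background and for outliers came from that software. A deposited table of the authors' own signed fold changes, for 9 lettered comparisons, was not used. The groups come from the sample labels. Outlier spots and 4259 control spots of 62976 spots per array were left out. Signals were put on the log2 scale minus the 75th percentile of each array, and spots of a probe were averaged. Symbols came from RefSeq accessions, for 17998 of 30367 probes. Probes well above background on at least 3 arrays were tested.

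All comparisons were made in 1 limma fit (limma 3.58.1, R 4.3.3) with a mean for each of 13 groups, the slope in a fit of 15 samples. The first design had 49 arrays as samples. Since 2 pairs of arrays looked like 1 RNA each, their means were used, which gave 47 samples. For single values, exact permutation tests (two-sided) were run, and for correlations 100000 permutations within groups, with p-values adjusted over all probes (first planned over the 33 genes, and widened after seeing the data). The fit without 3 arrays, the muscle covariate, the fits along tissue lists, the split by squamous markers and the 10-month controls for adult rats of 13 months were chosen after seeing the data. The 47 genes and all lists were chosen with earlier results of these data known. Genes were named by a rule: those called, those without overlap between groups with the smallest p (up to 3 in each direction), those with the smallest p over ages, slopes and interactions, those with the 4 highest and 2 lowest correlations, and the 3 most and 3 least variable. Mdc1, Nbn in the correlations, Rad50 with the thyrocyte list and the other genes along tissue lists were named after their values were seen. Sample titles give a replicate number for each array, and each sample was read as 1 rat, with each averaged pair as 1 sample. The number of arrays limits the precision. Fits were tested on simulated data. Plots and tables used Python 3.11.15, numpy 2.4.6, scipy 1.17.1 and matplotlib 3.10.9. Alternatives were quantile normalization, normexp on the median signals with an offset of 50, other filters, slide, scan date and replicate number as blocks, array weights, another threshold, and each array left out.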

Additional observations from a re-analysis of the deposited data

Results flagged for a closer look

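In groups of 4 samples, 20 of 306 combinations of a gene and a group (6.54%) had 1 sample whose gap to the others passed Dixon's 95% value, and chance alone gives about 1 in 20 such flags. The 500 kBq replicate 4, poor in muscle signal (3.60), gave 5 of them, with Chek1 at -4.05, Fancd2 at -7.01, Lig1 at 1.12, Ung at -2.56 and Xrcc1 at 2.92, and its levels of Chek1, Lig1, Ung and Xrcc1 were above those of the other 3 rats. Fancd2 in this 500 kBq replicate lay below the lowest signal well above background on its array (-6.77). The dim array of the young rats 3 months after 50 kBq gave 4, with Atm at -2.96, Chek2 at -2.08, Ercc3 at 0.71 and Mutyh at 0.018, and the array of the same group without thyroid markers gave Neil1 at -3.10. Atm and Chek2 lay below the lowest signal well above background on the dim array (-2.01). Replicate 3 of the adult rats of 13 months, the poorest in muscle signal, gave Apex1 at 1.59 and Xrcc5 at 1.43, both below the others, and replicate 1 of that group gave Xrcc2 at -6.38. Replicate 3 of the adult rats of 7 months gave Ercc1 at 0.73 and Fancd2 at -5.47. In the 10-month controls, single samples gave Ercc3 at 1.75, Fancd2 at -5.70 and Mgmt at 1.20, and Mutyh was high in 1 control of 4 months (-2.20) and in 1 rat given 0.5 kBq (-2.21).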

How the results depend on the processing

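The count of 0 genes called in the 9 exposed comparisons stayed at 0 with quantile normalization, normexp correction, both other filters, slide or scan date as a block, the replicate block, averaged probes, the muscle covariate and each group with its controls alone. It was 16 with array weights (5.98% of all probes over these comparisons), 4 at an adjusted p below 0.05 without a fold limit (1.71%), 1 with each array as a sample (0.0659%), 3 without the 3 arrays that stood apart (0.284%), and 0 to 2 when samples were left out in turn, with 2 without replicate 1 or 4 of the young rats 3 months after 50 kBq. For control ages the counts were 10, 3, 3 and 3 under the same 4 settings (9.31%, 1.68%, 1.72% and 3.41% of all probes) and 0 to 3 when samples were left out, with 3 without the dim array. Array weights also gave 8 for young against adult (6.12%) and 21 for any exposed group (38.7%), and were extreme, from 2.9e-34 to 50.1. Of the comparisons of 33 genes in 9 exposed groups, 28 had no overlap, 47 without the 3 arrays and 28 to 44 when samples were left out. The count was 44 without replicate 3 of the 10-month controls and 43 without replicate 3 of the 13-month controls. These summed counts have no share of all probes beside them. Without the 3 arrays that share rose as well, in the young rats 3 months after 50 kBq from 3.97% to 9% above the controls and from 1.44% to 8.08% below. Genes related to the proliferation list by r numbered 6, adjusted over the 33 relations or over all probes, and, adjusted over the 33, 1 without the 3 arrays, 13 within samples low in squamous markers and 1 with quantile normalization. In 32 named comparisons, 3 signs turned: Fancd2 with normexp, to -0.32 and 0.032, and Neil1 with quantile normalization, to -0.11. The causes of these shifts were not tested. Of 32 same-numbered pairs of samples, 12 had r above 0.1, with every pair above it in 1 of the 9 comparisons alone, the young rats against controls at 7 months (3 pairs, r of 0.21 to 0.62), and the replicate block left the count of calls at 0 there and in the other 8. No gene had a probe besides the one used. Spots near background, as for Brca1, Xrcc2 and Fancd2, limit what can be read.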
